A study of Homo sapiens with 8 samples.

Results

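Extracellular matrix proteins and the proteases that cut them were followed after IGF2R knockdown through 45 genes, namely collagens, laminins, matrix glycoproteins, microfibril proteins, lysyl oxidases, matrix metalloproteinases (MMPs), their tissue inhibitors (TIMPs) and the urokinase system. These genes were named for this theme and not by their signals, although earlier results of the arrays were known. Of the 45 genes, 33 had a probe set, a group of probes for 1 transcript, that reached a signal of 500 on at least 1 of 8 arrays, and these are called measured here. They were 33 of 8961 measured genes in all. BOKU and SKG-I, both human cervical cancer cell lines, were lipofected with an siRNA against IGF2R (siIGF2R) or a control siRNA (siCtrl) and cultured for 72 h, with no other treatment or genetic change given for either group. The sources used here do not name which siRNA against IGF2R was hybridized. A single RNA sample was taken per line and siRNA and run on 2 arrays, which makes 4 RNA samples on 8 arrays, so the cell lines are the replicates and the duplicate arrays measure technical spread only.

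The matrix is a network that cells secrete and hold on to. Basement membranes are built from type IV collagen, laminins, nidogen, perlecan and agrin, while fibrillar collagens, fibronectin, tenascin and fibrillin microfibrils make up the interstitial matrix. Lysyl oxidases crosslink collagen and elastin, MMPs and the plasmin that urokinase generates break matrix down, and TIMPs inhibit MMPs. IGF2R, the cation-independent mannose 6-phosphate receptor, carries lysosomal enzymes and also binds the urokinase receptor and the latent form of TGF-beta.

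The targeted gene was lower in both lines. IGF2R had signals of 641 and 645 on the siIGF2R arrays of BOKU, against 7288 and 6710 on its siCtrl arrays. In SKG-I, IGF2R had 257 and 295 with siIGF2R and 4120 and 3838 with siCtrl (log2 change −3.65, standard error 0.21 over 2 lines, adjusted p = 0.0221 from limma). Signals are MAS5 intensities on a linear scale, array medians lay between 65.0 and 74.6, and signals under 100 are treated below as too low for a fold change of known size. Between duplicates, the log2 signals had differences with an SD of 0.27 to 0.35. Of 7 epithelial markers with a probe set, 4 reached 500 in BOKU and 6 in SKG-I. The simple epithelial keratins KRT8, KRT18 and KRT19 were among them in both lines, while KRT5, a basal keratin, was under 46 on every array, and EPCAM and CDH1 were under 51 on every BOKU array. None of 8 fibroblast markers reached 500 in BOKU and 1 did in SKG-I, the collagen COL3A1 with 1380 and 1648 with siIGF2R and 1965 and 2013 with siCtrl. The summed signal of the fibroblast markers was 220 to 355 on the BOKU arrays and 1670 to 2500 on the SKG-I arrays, and COL1A2, DCN and PDGFRA did not exceed 149 on any of them. No endothelial (0 of 5) or leukocyte (0 of 4) marker reached 500 in either line.

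Most matrix and protease mRNAs did not pass the test of a change common to both lines. The lysyl oxidase LOX and the microfibril protein FBN2 rose, and none fell, at an adjusted p under 0.05 from limma over all 16517 measured probe sets. These 2 of 33 measured genes (6.06%) compare with 236 of all 8961 measured genes that rose (2.63%), and the 0 that fell with 212 (2.37%). At an unadjusted p under 0.05, PLAU and PLAUR were also higher, which makes 4 of 33 genes (12.1%) against 14.4% of all, and TIMP2 was lower, 1 of 33 (3.03%) against 14% of all. The median log2 change of the 33 genes was 0.08 in BOKU and 0.39 in SKG-I, where the medians of all measured genes were 0.03 and −0.03. The arrays read whole cultures, in which fewer expressing cells and less RNA per cell cannot be told apart. The plot of changes by role shows the genes of each role and the spread between the lines.

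**Figure D1:**
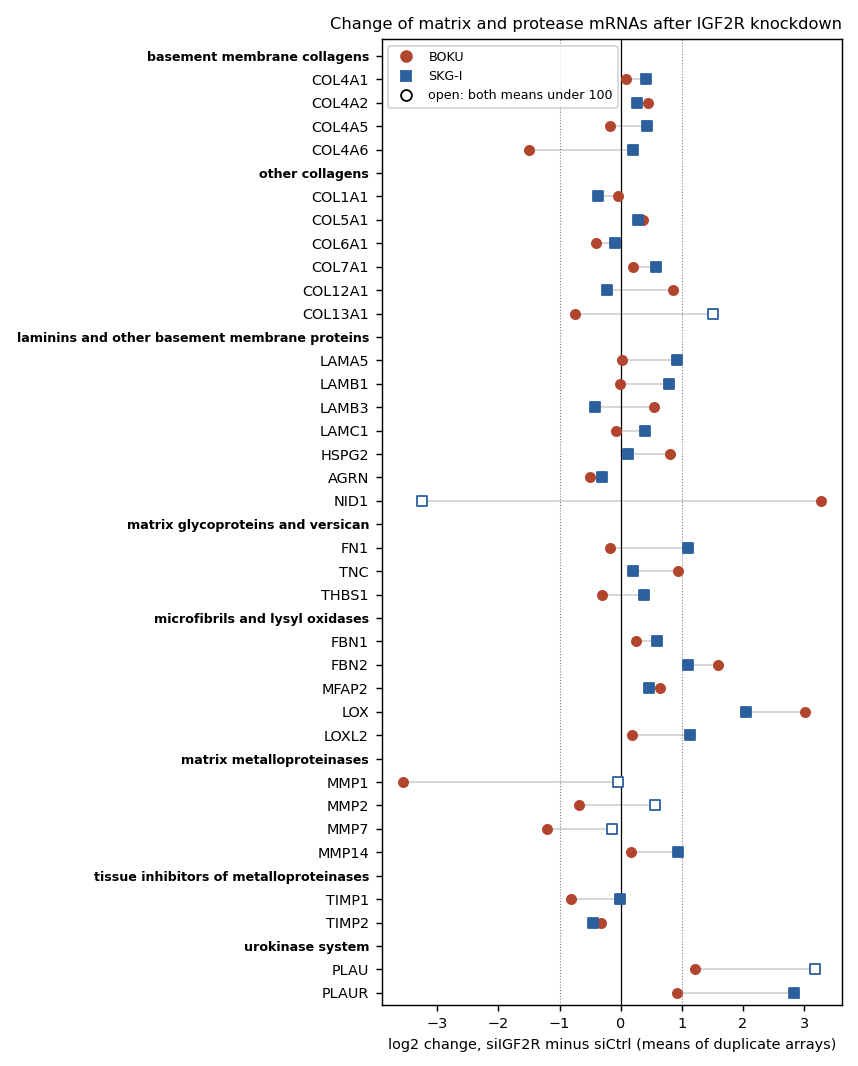
Log2 change of each measured gene (rows, grouped by role), siIGF2R minus siCtrl from the means of duplicate arrays, in BOKU (circles) and SKG-I (squares). Dotted lines mark 2-fold, and open symbols mark changes for which both mean signals were under 100. LOX and FBN2 lie beyond 2-fold in both lines, MMP1 and NID1 have the largest changes in BOKU, and PLAUR has 0.92 in BOKU and 2.84 in SKG-I.

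LOX, which oxidizes lysines of collagen and elastin so that the fibers crosslink, had the largest change that passed. Its signals were 11208 and 11612 with siIGF2R and 1410 and 1428 with siCtrl in BOKU. In SKG-I they were 920 and 887 with siIGF2R and 216 and 218 with siCtrl. The groups did not overlap in either line, and LOX rose 8.04-fold in BOKU and 4.16-fold in SKG-I (log2 change 2.53 with a standard error of 0.28 over 2 lines, adjusted p = 0.0221 from limma). The other LOX probe sets did not repeat this in SKG-I. Probe set 204298_s_at had 6373 and 7017 with siIGF2R and 2748 and 2975 with siCtrl in BOKU, a log2 change of 1.23, but 278 and 244 with siIGF2R and 501 and 480 with siCtrl in SKG-I, a log2 change of −0.92 (adjusted p = 0.863 over both lines from limma). The dimmer 213640_s_at had a change of 1.36 in BOKU and was under 100 on every SKG-I array (adjusted p = 0.809 from limma). All 3 probe sets were therefore higher with siIGF2R in BOKU, and in SKG-I, where 2 were bright enough to compare, 1 was higher and 1 lower. The probe set that stands for LOX is the brightest by its mean over all 8 arrays, those with siIGF2R included. With siCtrl, 204298_s_at was the brighter one in both lines, so this choice rests on the signals with siIGF2R. The pass of LOX thus depends on a probe set chosen in part by the signals under test. With the mean of the 3 probe sets in place of the brightest, the log2 change of LOX was 0.99 and did not pass (adjusted p = 0.234 from limma). FBN2, a fibrillin of microfibrils that is made mostly in developing tissue, had 916 and 939 with siIGF2R and 293 and 326 with siCtrl in BOKU. Its SKG-I signals were 1420 and 1586 with siIGF2R and 698 and 697 with siCtrl. FBN2 rose 3.0-fold in BOKU and 2.15-fold in SKG-I (log2 change 1.35, standard error 0.24, adjusted p = 0.0434 from limma), with no overlap of the arrays in either line, and without siCtrl array 2 of BOKU its adjusted p was 0.0541 from limma.

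The sequences just upstream of the start sites of LOX and FBN2, the genes that passed, are shown because they moved together, beside that of PLAUR, which among the 33 genes had the largest change in SKG-I at signals above 100. Each is 250 bases, 5′ to 3′ on the strand of the gene and ending at the base before the RefSeq start (GRCh38.p14, minus strand, chr5:122078260-122078509 for LOX, chr5:128538246-128538495 for FBN2 and chr19:43670170-43670419 for PLAUR). Capitals mark matches to the AP-1 motif TGANTCA.
LOX: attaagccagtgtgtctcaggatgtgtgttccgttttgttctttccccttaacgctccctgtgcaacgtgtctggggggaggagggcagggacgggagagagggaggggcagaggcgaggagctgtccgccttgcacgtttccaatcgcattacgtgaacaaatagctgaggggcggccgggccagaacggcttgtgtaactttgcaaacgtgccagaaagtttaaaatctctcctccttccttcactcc
FBN2: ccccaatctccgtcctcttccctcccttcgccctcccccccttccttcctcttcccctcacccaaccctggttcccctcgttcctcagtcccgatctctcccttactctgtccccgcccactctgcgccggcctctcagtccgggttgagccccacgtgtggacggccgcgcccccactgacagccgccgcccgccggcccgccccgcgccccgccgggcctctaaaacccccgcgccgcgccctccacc
PLAUR: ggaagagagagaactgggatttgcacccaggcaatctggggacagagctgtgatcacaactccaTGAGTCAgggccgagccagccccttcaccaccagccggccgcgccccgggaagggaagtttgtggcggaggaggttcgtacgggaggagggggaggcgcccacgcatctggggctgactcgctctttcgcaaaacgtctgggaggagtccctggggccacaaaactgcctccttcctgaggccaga
The AP-1 motif, bound by FOS and JUN dimers, the TATA box TATAAA and the TEAD motif GGAATG, bound by the partners of YAP, were searched on both strands of a window of 250 bases before and 50 bases after the start. In these promoters no match of 1 motif overlapped a match of another. Of 45 genes, 35 had a promoter in the table. PLAUR had an AP-1 match at bases −186 to −180 from its start, and LOX and FBN2 had no match to any of the 3 motifs in this window. AP-1 matched in 5 of the 35 promoters (14.3%), those of LAMA3, MFAP2, MMP7, MMP10 and PLAUR, and in 7.71% of all 35116 promoters. TATAAA matched in 7 of 35 (20%) against 11.5% of all promoters, and GGAATG in 5 of 35 (14.3%) against 14% of all promoters. The 35 include genes that were not measured. Of the 26 measured genes with a promoter, 3 had an AP-1 match, 3 a TATAAA match and 3 a GGAATG match.

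**Figure D2:**
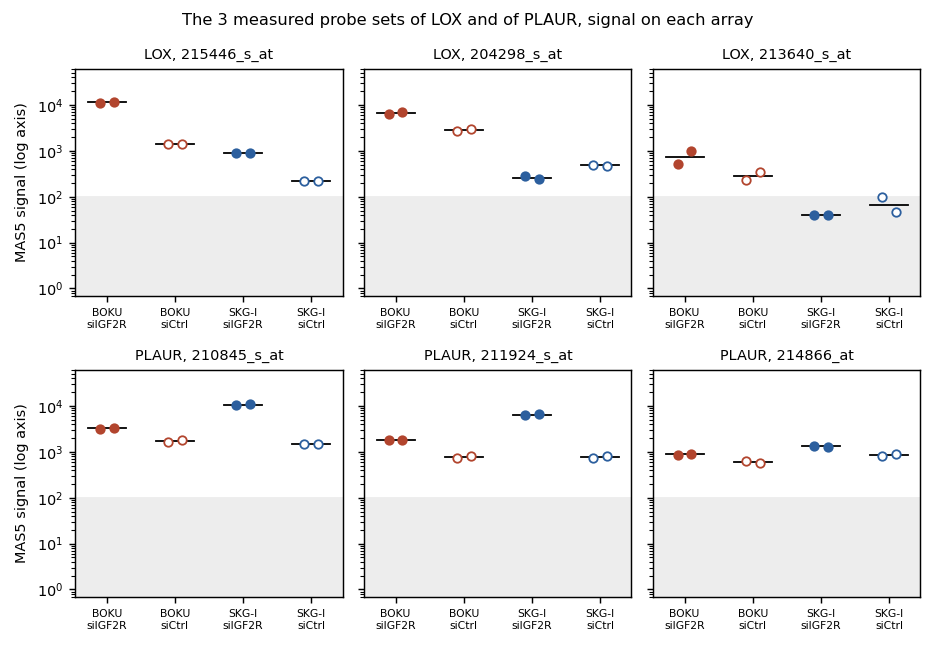
MAS5 signal (log axis) of the 3 measured probe sets of LOX (top) and of PLAUR (bottom) on each array, with filled points for siIGF2R, open points for siCtrl, bars at the geometric mean of duplicates and grey below 100. LOX is higher with siIGF2R on all 3 probe sets in BOKU and on the first alone in SKG-I, where the third is under 100, and PLAUR is higher with siIGF2R on all 3 in both lines.

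The other crosslinking and microfibril genes had smaller changes. LOXL2, a lysyl oxidase that acts on type IV collagen, had 7997 and 8860 with siIGF2R and 7304 and 7451 with siCtrl in BOKU. In SKG-I LOXL2 had 565 and 542 with siIGF2R and 341 and 186 with siCtrl, 2.20-fold higher. Its duplicates with siCtrl in SKG-I lay apart, and the log2 change of 1.14 was 1.57 without siCtrl array 1 and 0.70 without siCtrl array 2. LOXL2 did not pass the test over both lines (log2 change 0.66, adjusted p = 0.189 from limma). FBN1, the main fibrillin of adult microfibrils, had log2 changes of 0.25 in BOKU cells and of 0.59 in SKG-I cells (adjusted p = 0.207 from limma). The changes of 2 further probe sets were 0.14 and 0.32 in BOKU and 0.62 and 0.46 in SKG-I. MFAP2, which binds fibrillin, had 101 and 107 with siIGF2R and 115 and 38.3 with siCtrl in BOKU, where the arrays overlap. In SKG-I MFAP2 had 823 and 796 with siIGF2R and 625 and 550 with siCtrl, a log2 change of 0.46.

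Neither gene of the urokinase system passed the test. PLAUR was higher with siIGF2R in both lines, and PLAU was higher in BOKU and too dim in SKG-I to compare. PLAU encodes urokinase, the protease that turns plasminogen into plasmin. PLAU had 12982 and 17227 with siIGF2R and 5516 and 7511 with siCtrl in BOKU, 2.32-fold higher with no overlap. In SKG-I its signals were 58.9 and 66.4 with siIGF2R and 7.05 and 6.84 with siCtrl, all under 100, so its log2 change of 3.17 there has no known size, and it is 0 with signals below 100 set to 100. Another probe set, 211668_s_at, had 1.35 in BOKU, and in SKG-I, also all under 100, its direction was the opposite (−0.76). Over both lines the change of PLAU was 2.19 on the log2 scale (standard error 0.48, adjusted p = 0.0638 from limma), and 0.61 when signals below 100 were set to 100 (adjusted p = 0.277 from limma). PLAUR encodes the urokinase receptor, which holds urokinase at the cell surface. PLAUR had 3150 and 3361 with siIGF2R and 1655 and 1794 with siCtrl in BOKU, 1.89-fold higher. In SKG-I PLAUR had 10701 and 10793 with siIGF2R and 1494 and 1515 with siCtrl, 7.14-fold higher. The duplicates lay close together and the groups did not overlap in either line (log2 change 1.88, standard error 0.43, adjusted p = 0.0694 from limma). For its probe set 211924_s_at the log2 change was 1.21 in BOKU cells and 3.07 in SKG-I cells (adjusted p = 0.0544 from limma), and 214866_at had 0.55 and 0.63 (adjusted p = 0.146 from limma). PLAUR is in the study's list of probe sets changed in both lines, which was chosen on these arrays, so its direction is not independent evidence. PLAU and PLAUR passed without siCtrl array 1 of BOKU (adjusted p = 0.0270 and 0.0214 from limma) and without siIGF2R array 2 of BOKU (adjusted p = 0.0347 and 0.0286 from limma), and PLAU also without siIGF2R array 2 of SKG-I (adjusted p = 0.0499 from limma).

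**Figure D3:**
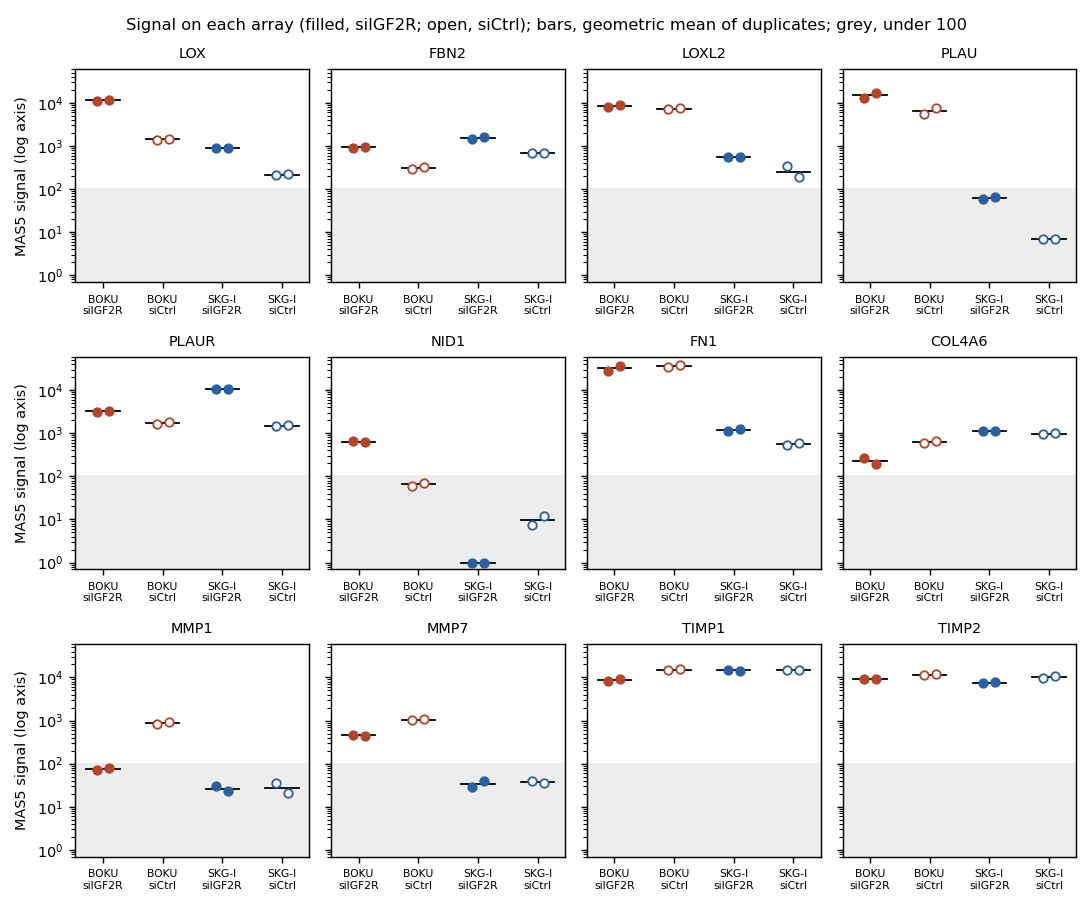
MAS5 signal (log axis) of 12 genes on each array, with filled points for siIGF2R, open points for siCtrl, bars at the geometric mean of duplicates and grey below 100. LOX and FBN2 are higher with siIGF2R in both lines, MMP1 and MMP7 are lower with siIGF2R in BOKU and under 100 in SKG-I, and FN1 and PLAU are far brighter in BOKU than in SKG-I.

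MMP1 and MMP7 were at least 2-fold lower with siIGF2R in BOKU, where only their siCtrl arrays brought them past 500, and MMP1, MMP2 and MMP7 were under 100 on every SKG-I array. These 3 count as measured through BOKU only, so nothing is read from their number. MMP1, the interstitial collagenase, had 69.7 and 78.8 with siIGF2R and 819 and 940 with siCtrl in BOKU. This was 11.8-fold lower, or 8.78-fold with signals below 100 set to 100, and the arrays did not overlap. In SKG-I MMP1 had 30.0 and 23.2 with siIGF2R and 36.5 and 20.4 with siCtrl, all under 100. MMP7, matrilysin, had 468 and 439 with siIGF2R and 1035 and 1066 with siCtrl in BOKU, 2.32-fold lower, and no more than 40.1 on any SKG-I array. MMP2, gelatinase A, had 1262 and 1355 with siIGF2R and 1969 and 2216 with siCtrl in BOKU, a log2 change of −0.68. Its SKG-I signals were 96.5 and 63.2 with siIGF2R and 61.3 and 45.6 with siCtrl. MMP14, the membrane-bound MMP that activates MMP2, was 1.12-fold higher in BOKU and 1.92-fold higher in SKG-I, and its other probe set had log2 changes of −0.08 in BOKU cells and 0.39 in SKG-I cells. None of the 4 passed over both lines (adjusted p of 0.256 for MMP14 and 0.337 for MMP1 from limma, and 0.446 for MMP7 and 0.943 for MMP2). MMP9, MMP10 and MMP13 did not reach 500, with highest signals of 135, 81.0 and 25.7. The region upstream of MMP7 is shown because MMP7 was lower in the line that expressed it and has both motifs close to its start (GRCh38.p14, minus strand, chr11:102530748-102530997, 250 bases), with capitals for TGAGTCA at −67 to −61 and TATAAA at −30 to −25.
MMP7: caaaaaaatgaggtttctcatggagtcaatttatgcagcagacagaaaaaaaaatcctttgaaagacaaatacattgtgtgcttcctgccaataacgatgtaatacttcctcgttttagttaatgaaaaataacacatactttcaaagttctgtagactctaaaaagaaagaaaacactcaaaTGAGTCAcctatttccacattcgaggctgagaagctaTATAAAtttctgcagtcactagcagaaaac
No promoter of MMP1 was found in the table used here. The promoter of MMP7 was shown partly because it holds these motifs. Whether they bear on the change of MMP7 was not tested.

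TIMP1 and TIMP2, which block active MMPs, were bright in both lines. TIMP1 had mean signals of 8625 with siIGF2R and 15164 with siCtrl in BOKU, 1.76-fold lower, and 14665 with siIGF2R and 14798 with siCtrl in SKG-I, where the arrays overlapped (adjusted p = 0.252 from limma). TIMP2 had 9310 with siIGF2R and 11677 with siCtrl in BOKU and 7570 with siIGF2R and 10389 with siCtrl in SKG-I, with no overlap in either line. Its log2 change of −0.39 (standard error 0.13) did not pass after adjustment (adjusted p = 0.136 from limma), the probe set 224560_at had −0.22 in BOKU cells and −0.60 in SKG-I cells, and the less bright 203167_at had 0.26 in BOKU cells and −0.42 in SKG-I cells. TIMP3 did not exceed 82.9 on any array.

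No basement membrane collagen passed over both lines, and COL4A6 in BOKU was the only one past 2-fold in a line. COL4A6, a type IV chain that pairs with the COL4A5 chain, had 261 and 191 with siIGF2R and 593 and 665 with siCtrl in BOKU, 2.81-fold lower with no overlap. In SKG-I COL4A6 had 1113 and 1145 with siIGF2R and 956 and 1011 with siCtrl, a log2 change of 0.20. COL4A5 had log2 changes of −0.17 in BOKU and 0.43 in SKG-I. COL4A1 and COL4A2, the chains found in nearly all basement membranes, had 0.08 and 0.45 in BOKU and 0.42 and 0.26 in SKG-I. Adjusted p values of these 4 genes were 0.248 to 0.693 from limma.

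Of the other collagens, none passed over both lines. COL12A1, a collagen that coats fibrils, had 5047 and 4756 with siIGF2R and 2786 and 2604 with siCtrl in BOKU. In SKG-I COL12A1 had 8365 and 8320 with siIGF2R and 9599 and 9903 with siCtrl. The arrays were separate in both lines and in opposite directions, 0.86 in BOKU and −0.22 in SKG-I, and its other probe sets had 0.44 and 0.91 in BOKU and −0.23 and −0.59 in SKG-I. COL13A1, a collagen that spans the membrane, had 1628 and 1610 with siIGF2R and 2638 and 2811 with siCtrl in BOKU, a log2 change of −0.75. In SKG-I COL13A1 had 45.1 and 45.7 with siIGF2R and 36.6 and 6.98 with siCtrl, all under 100, and its log2 change of 1.51 was 0.31 without siCtrl array 2 and 2.70 without siCtrl array 1. COL1A1, a chain of type I collagen, had 1530 and 1187 with siIGF2R and 1365 and 1398 with siCtrl in BOKU, where the arrays overlapped. In SKG-I COL1A1 had 4378 and 4304 with siIGF2R and 5574 and 5684 with siCtrl. Only this 1 of the 5 probe sets of COL1A1 reached 500 on any array, so no other probe set repeats these signals. COL5A1, which nucleates type I fibrils, had 3107 and 2678 with siIGF2R and 2248 and 2248 with siCtrl in BOKU, and 16319 and 14380 with siIGF2R and 12838 and 12394 with siCtrl in SKG-I. Its log2 change of 0.32 did not pass (adjusted p = 0.229 from limma), and the probe set 212489_at had 0.67 in BOKU cells and 1.13 in SKG-I cells (adjusted p = 0.0659 from limma). The third probe set, 212488_at, had −0.06 in BOKU cells and 0.72 in SKG-I cells (adjusted p = 0.405 from limma). COL6A1, a chain of beaded filaments, had changes of −0.41 in BOKU cells and −0.10 in SKG-I cells, from the only 1 of its 8 probe sets that reached 500. COL7A1, the collagen of anchoring fibrils, had 0.21 in BOKU cells and 0.57 in SKG-I cells. COL5A2, COL6A2 and COL6A3 did not reach 500, with highest signals of 335, 377 and 47.4, and no probe set was named for COL17A1 alone in the annotation used here.

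Among the laminins, the chains LAMA5, LAMB1 and LAMC1, which can join in 1 laminin, had log2 changes of 0.03, −0.01 and −0.07 in BOKU and of 0.91, 0.79 and 0.39 in SKG-I. Their adjusted p values over both lines were 0.307, 0.328 and 0.596 from limma, and for LAMA5 the duplicates with siCtrl in BOKU were 774 and 2237. The second probe set of LAMC1, 200770_s_at, had −0.33 in BOKU cells and −0.01 in SKG-I cells, and so did not repeat the 0.39. LAMB3, a chain of the laminin that anchors epithelia, had 847 and 1034 with siIGF2R and 608 and 674 with siCtrl in BOKU. In SKG-I LAMB3 had 1986 and 1980 with siIGF2R and 2801 and 2498 with siCtrl, the opposite direction. No probe set was named for LAMA3 alone. Perlecan, HSPG2, had 0.81 in BOKU cells and 0.11 in SKG-I cells, and agrin, AGRN, had −0.50 and −0.31 (adjusted p = 0.292 and 0.258 from limma). NID1, the nidogen that links laminin to type IV collagen, had 648 and 618 with siIGF2R and 60.1 and 70.4 with siCtrl in BOKU. This was 9.73-fold higher, or 6.33-fold with signals below 100 set to 100, and NID1 reached 500 on these siIGF2R arrays only. In SKG-I NID1 was at 1, the lowest deposited value, on both siIGF2R arrays and at 7.46 and 12.1 with siCtrl, at the bottom of the scale, so the change of −3.25 there has no known size and is 0 with the same floor.

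The glycoproteins FN1, TNC and THBS1 did not pass either. FN1, fibronectin, had 28412 and 36751 with siIGF2R and 35262 and 38034 with siCtrl in BOKU. Its arrays overlapped there. In SKG-I FN1 had 1144 and 1253 with siIGF2R and 533 and 581 with siCtrl, 2.15-fold higher. The 3 other bright probe sets of FN1 had 0.92 to 1.44 in SKG-I, while the 2 dimmer ones, under 100 in SKG-I, had −0.93 and −0.66, and 1 of these stands for FN1 when probe sets with _s_ or _x_ in their names are left out. TNC, tenascin C, a glycoprotein of remodeling stroma, had 13656 and 14350 with siIGF2R and 7972 and 6742 with siCtrl in BOKU, 1.91-fold higher. In SKG-I TNC had 111 and 111 with siIGF2R and 84.1 and 110 with siCtrl. Its dimmer probe set 216005_at had a change of 0.16 in BOKU and was under 100 in SKG-I. THBS1, thrombospondin 1, had −0.30 in BOKU cells and 0.38 in SKG-I cells. Its probe set 201109_s_at had −0.35 in BOKU and 0.65 in SKG-I, while 201108_s_at had 0.004 and 0.28, with overlapping arrays in BOKU. Adjusted p values over both lines were 0.375 for FN1, 0.212 for TNC and 0.915 for THBS1 from limma. THBS2, SPARC and VCAN did not reach 500, with highest signals of 54.4, 223 and 99.2.

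Counted within each line, with no test because a line has 1 RNA sample per siRNA, 4 genes were at least 2-fold higher in BOKU (FBN2, LOX, NID1 and PLAU), 12.1% of the 33 against 8.02% of all measured genes. In BOKU 3 were at least 2-fold lower (COL4A6, MMP1 and MMP7), 9.09% against 5.06% of all. MMP1 and MMP7 count as measured through their siCtrl arrays of BOKU only, and NID1 through its siIGF2R arrays of BOKU only. Their entry in these counts thus follows in part from the minimum signal, and nothing is read from the shares in BOKU. In SKG-I 7 were at least 2-fold higher (COL13A1, FBN2, FN1, LOX, LOXL2, PLAU and PLAUR), 21.2% against 8.28% of all, and COL13A1 and PLAU among them were under 100 with both siRNAs. NID1 alone was at least 2-fold lower in SKG-I, 3.03% against 6.42% of all, and its signals were near 0 there. FBN2, LOX and PLAU were at least 2-fold higher in both lines, 9.09% against 3.18% of all, and 0 were at least 2-fold lower in both, against 2.34% of all. In BOKU, PLAU is 2-fold higher by a narrow margin, with a log2 change of 0.99 without siCtrl array 1.

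More of these genes differed 2-fold between the lines with siCtrl than with siIGF2R against siCtrl in either line, as was so for all measured genes. Of all measured genes, 8.02% were at least 2-fold higher and 5.06% lower with siIGF2R in BOKU, and 8.28% and 6.42% in SKG-I. With siCtrl, 12 of 33 genes (36.4%) were at least 2-fold higher in BOKU than in SKG-I, against 15.7% of all measured genes, and 6 (18.2%) were at least 2-fold lower, against 19% of all. Higher in BOKU were PLAU, COL13A1, TNC, FN1, MMP2, MMP1, LOXL2, MMP7, NID1, LOX, COL6A1 and MMP14. Genes that reached 500 in BOKU only, MMP1, MMP2 and MMP7 among them, could hardly lie elsewhere, so their number here follows in part from the minimum of 500. Lower in BOKU were MFAP2, COL5A1, LAMB3, COL1A1, COL12A1 and FBN2. For FN1, whose signals are above 500 in both lines, the difference was 65.8-fold. LOXL2 was 29.3-fold higher in BOKU. For genes under 100 in SKG-I the size rests on the floor. PLAU was 64.4-fold higher in BOKU with signals below 100 set to 100, TNC 70.0-fold, COL13A1 27.2-fold, MMP2 20.9-fold, MMP7 10.5-fold and MMP1 8.78-fold, and NID1 showed no difference on that scale because both lines were below it. In the other direction the log2 differences, BOKU minus SKG-I, were −3.14 for MFAP2 (−2.45 with the same floor, −3.94 without siCtrl array 1 of BOKU and −2.35 without its siCtrl array 2), −2.49 for COL5A1, −2.05 for LAMB3, −2.03 for COL1A1, −1.86 for COL12A1 and −1.18 for FBN2. Each line is 1 RNA sample here, so these are descriptions of the samples. COL1A2, the partner chain of COL1A1 in type I collagen, was under 52 on every array of both lines. The difference of COL1A1 rests on the only 1 of its 5 probe sets that reached 500.

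**Figure D4:**
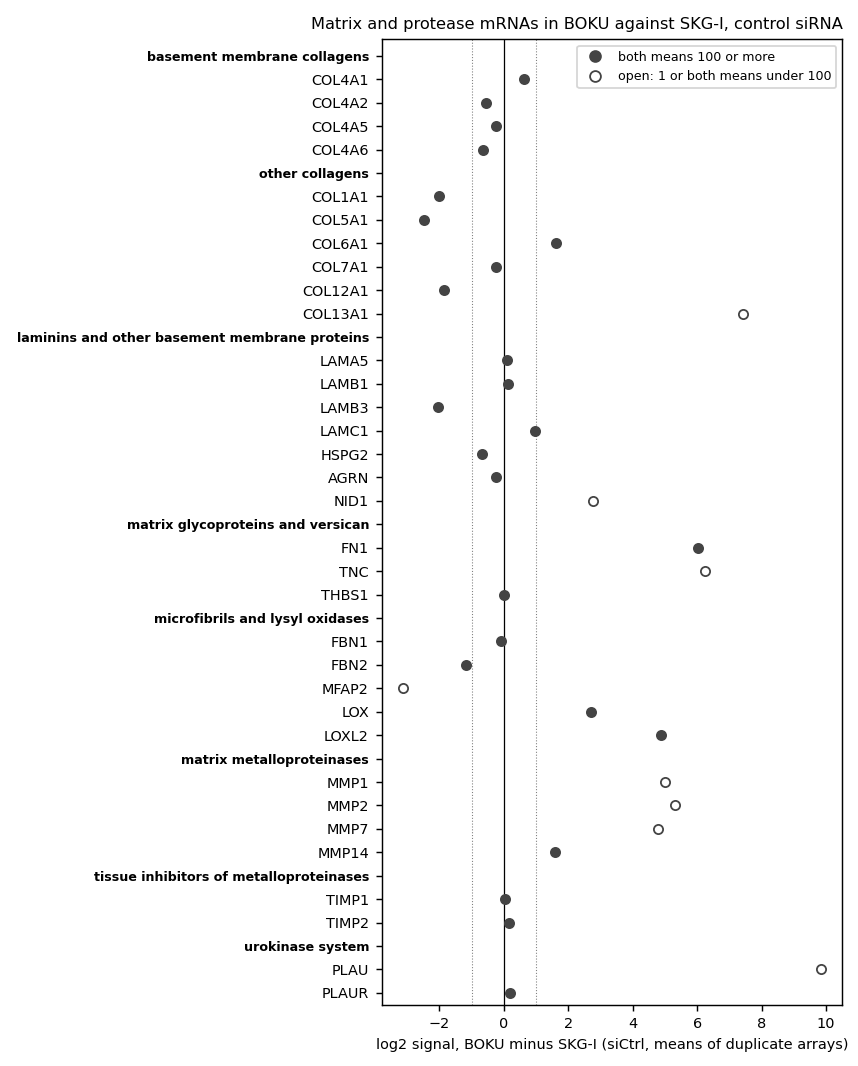
Log2 signal with siCtrl of each measured gene (rows, grouped by role), BOKU minus SKG-I from the means of duplicate arrays. Dotted lines mark 2-fold and open symbols mark genes with 1 or both means under 100. Proteases, PLAU, FN1, TNC and lysyl oxidases lie on the BOKU side, and COL1A1, COL5A1, COL12A1, LAMB3 and MFAP2 on the SKG-I side.

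The change with siIGF2R also differed between the lines, which the design cannot test. The log2 change in BOKU minus that in SKG-I was at least 1 for COL12A1 and NID1, 6.06% of 33 against 6.17% of all measured genes. It was −1 or lower for 8 genes, COL13A1, COL4A6, FN1, MMP1, MMP2, MMP7, PLAU and PLAUR, 24.2% against 5.38% of all. Of these 8, COL13A1, MMP1, MMP2, MMP7 and PLAU were under 100 in SKG-I with both siRNAs. With signals below 100 set to 100 the difference was −1 or lower for 5 of the 33 genes, COL4A6, FN1, MMP1, MMP7 and PLAUR. The 5.38% does not apply to that floor, and no share of all measured genes is given for it, so nothing is read from this count. For PLAU the difference turned round with that floor, to 1.22, and its other probe set also has a positive one. MMP1 and MMP7 count as measured through their siCtrl arrays of BOKU only, so nothing is read from their number here. In 8 genes (24.2%, against 13.3% of all) the arrays moved in opposite directions without overlap, COL12A1, COL13A1, COL4A5, COL4A6, LAMB3, MMP2, NID1 and THBS1.

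Matrix genes outside the 45 were read from the same fit. Of 61 other core matrix genes 33 were measured, and MFAP5 rose and SPP1 fell. Of all measured genes 2.63% rose and 2.37% fell at an adjusted p under 0.05 from limma. These shares stand beside the genes that passed in each of the lists here, and nothing is read from how many passed. MFAP5, a microfibril protein like MFAP2, had 1048 and 1158 with siIGF2R and 483 and 460 with siCtrl in BOKU, and 2192 and 2104 with siIGF2R and 395 and 347 with siCtrl in SKG-I (log2 change 1.88, adjusted p = 0.0460 from limma). The call was lost without siCtrl array 2 of BOKU (adjusted p = 0.0586 from limma) or siCtrl array 1 of SKG-I (adjusted p = 0.0504 from limma) and after quantile normalization (0.0552). MFAP5 also did not pass with equal array medians, a filter at 250 or the mean of its probe sets (adjusted p = 0.0520, 0.0599 and 0.0607 from limma). SPP1, osteopontin, had 2790 and 2843 with siIGF2R and 9268 and 9335 with siCtrl in BOKU. In SKG-I SPP1 had 38.6 and 35.8 with siIGF2R and 91.3 and 113 with siCtrl, and with signals below 100 set to 100 it did not pass (log2 change −0.91, adjusted p = 0.210 from limma). COL15A1 was at least 2-fold higher in both lines but was under 100 in BOKU. Of 33 other proteases and inhibitors 15 were measured, and ADAMTS1, a protease that cuts proteoglycans, rose (log2 change 1.15, adjusted p = 0.0445 from limma, and 0.0555 without siCtrl array 2 of BOKU). ADAMTS1 had 5236 and 5255 with siIGF2R and 2849 and 2743 with siCtrl in BOKU, and 2432 and 2321 with siIGF2R and 888 and 916 with siCtrl in SKG-I. Its call was also lost with equal array medians, a filter at 250 or the mean of its probe sets (adjusted p = 0.0509, 0.0576 and 0.0867 from limma). ADAMTS5 was at least 2-fold higher in both lines, with signals under 100 in SKG-I. Of 24 genes that modify and fold collagen 17 were measured and 0 passed in either direction, with 3 of 17 higher and 0 lower at an unadjusted p under 0.05. At that p 11 of the 33 other core matrix genes were higher and 1 was lower, and 5 and 2 of the 15 other proteases and inhibitors, beside 14.4% and 14% of all measured genes. The median log2 changes of the genes that modify and fold collagen were 0.16 in BOKU and 0.08 in SKG-I. Those of the other core matrix genes were 0.38 and 0.54, and those of the other proteases and inhibitors −0.26 and 0.26. LOXL1, a lysyl oxidase of elastic fibers, had 1566 and 1505 with siIGF2R and 470 and 575 with siCtrl in BOKU, and was under 100 in SKG-I.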

How the data were processed

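The mRNA of BOKU and SKG-I was hybridized to GeneChip arrays 72 h after transfection. The authors deposited 1 MAS5 intensity per probe set and array, on a linear scale, with 54675 probe sets and no filter. The trimmed mean is 500 on every array, which is not the target that the methods state, so the minimum of 500 used here does not equal the methods' minimum of the same size. Genes were named from the platform annotation. Here log2 intensities were used with no floor, 62 control probe sets were removed, and a probe set had to reach 500 on at least 1 array (16517 did, of which 14544 had 1 gene, 765 several and 1208 none). Duplicate arrays were averaged. R 4.3.3 and limma 3.58.1 fitted the siRNA effect with a block for the cell line and a variance trend, a two-sided test and Benjamini-Hochberg adjusted p under 0.05 over all kept probe sets (1 residual and 4.82 prior degrees of freedom). Having 4 RNA samples limits the precision. A gene was represented by its brightest probe set, by the mean signal over all 8 arrays, so the siIGF2R arrays took part in this choice.

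The members and lists were chosen with earlier results of these data known. Array values are given for members that passed, members changed 2-fold in a line with a mean of 500 or more there, and the 5 that differed most between the lines in each direction; of other lists, up to 5 genes that passed and up to 2 in each direction past 2-fold in both lines are named. Promoters came from a RefSeq table (GRCh38.p14). Alternatives covered the filter, scaling, floor, probe set choice, variance model, blocks, fold and each array left out. The methods name an unpaired t-test between control and treated groups, which was run within each line as an alternative only.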

Additional observations from a re-analysis of the deposited data

Results flagged for a closer look

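In 8 of 33 genes (background 13.3% of all measured genes) every siIGF2R array lay above every siCtrl array in 1 line and below in the other. The difference was not tested, because each line has 1 RNA sample per siRNA. The log2 change in BOKU minus that in SKG-I was 6.53 for NID1, 1.09 for COL12A1 and 0.96 for LAMB3, which were higher in BOKU and lower in SKG-I. It was −2.26 for COL13A1, −1.69 for COL4A6, −1.24 for MMP2, −0.69 for THBS1 and −0.60 for COL4A5, which were lower in BOKU and higher in SKG-I. NID1, COL13A1 and MMP2 were under 100 in SKG-I with both siRNAs, and their changes there were 0 with signals below 100 set to 100. For THBS1 the probe set 201108_s_at did not repeat the lower signal in BOKU (log2 change 0.004, arrays overlapping).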

How the results depend on the processing

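LOX and FBN2 were the 2 genes that rose by limma, where 2.63% of all measured genes rose. The count was 1 with a filter at 250 (1.43% of all). It was also 1 with only probe sets without _s_ or _x_ in their names (3.24% of all), which leaves LOX with none. With 64 added to each signal it was 4 (4.51% of all), with PLAU and PLAUR. When the probe sets of a gene were averaged, without the variance trend or without the block for the line, 0 passed (4, 5 and 1 at an unadjusted p under 0.05). Of all genes, limma called 0.547% higher in the first of these settings and 0 in the last 2. With the 8 arrays as separate samples, 13 of 33 rose and 4 fell (25.8% and 24.8% of all measured genes), and with the replicate block 10 rose and 2 fell (24.2% and 23.3% of all). Deviations of same-numbered arrays correlated by 0.13 in BOKU and 0.06 in SKG-I, and by −0.006 to 0.030 between the lines. The labels give a replicate number and no batch, and whether same-numbered arrays were processed together was not tested. Leaving out 1 array gave 1 to 4 rises, and the share of all genes that rose moved the same way. There was 1 rise without siCtrl array 2 of BOKU (1.6% of all). There were 4 without siCtrl array 1 (5.75% of all) or siIGF2R array 2 of BOKU (5.39% of all). The methods' t-test with its 2-fold rule gave 2, FBN2 and LOX, before and after Benjamini-Hochberg adjustment, and 0 lower. Of all 8961 measured genes it gave 243 higher and 182 lower before adjustment, and 73 and 58 after. Within a line it compares duplicate arrays of 1 RNA sample per siRNA, so it measures technical spread only and is not separate evidence. The cause of these shifts was not tested.

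Counts of 2-fold changes in BOKU were 2 higher with only probe sets without _s_ or _x_, 9 higher and 6 lower at 1.5-fold, and 1 lower at 3-fold. In SKG-I they were 4 higher with 64 added, 1 higher with only probe sets without _s_ or _x_, 11 higher at 1.5-fold and 3 higher at 3-fold, and 3 lower with no filter, 2 lower with a filter at 250 and 0 lower with 64 added or signals below 100 set to 100. In both lines 1 was higher with only probe sets without _s_ or _x_ and 1 at 3-fold, and 1 (SPARC) was lower with no filter. With siCtrl, 7 were higher in BOKU than in SKG-I with only probe sets without _s_ or _x_. The response was higher in BOKU for 4 genes with no filter, 4 with the mean of probe sets and 1 at 3-fold, and lower for 5 with signals below 100 set to 100, 4 with only probe sets without _s_ or _x_ and 5 at 3-fold. The change of FN1 in SKG-I was −0.66 with only such probe sets, a reversed sign. Signals under 100 limit the fold changes of dim genes. No share of all measured genes is given for 2-fold changes at these other thresholds and settings. These counts therefore have no background beside them, and nothing is read from their size.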
